A study of Mus musculus with 12 samples.

Results

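Mature T cells are divided by coreceptor. CD4 binds MHC class II and is carried by helper cells, whereas CD8, a dimer of the alpha chain from Cd8a and the beta chain from Cd8b1, binds MHC class I and is carried by cytotoxic cells. Both coreceptors bring the kinase Lck to the T cell receptor. In the thymus the split is set by a small circuit of nuclear factors: Zbtb7b (ThPOK) holds cells in the CD4 fate and represses the CD8 genes, Runx3 holds cells in the CD8 fate and silences Cd4, Runx1 acts in earlier precursors and in CD4 cells, and Gata3 promotes Zbtb7b and later directs type 2 helper cells. The 7 genes Cd4, Cd8a, Cd8b1, Zbtb7b, Runx3, Runx1 and Gata3 were taken by symbol from the 25078 genes of the read-count table, and all 7 passed the filter on low counts.

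Donor T cells were recovered from the liver on day 6 after allogeneic hematopoietic cell transplantation. The hosts were BALB/c mice given a lethal dose of radiation and then WT C57BL/6 marrow without its T cells. The T cells given with it, also C57BL/6, were WT, STAT3-/- or STAT3-/-PD-1-/-. H-2Kb+ TCRβ+ cells were then sorted as CD4+ or CD8+, which gave 6 groups of 2 RNA-Seq libraries. Cells of several recipients were pooled for each library. The CD4+ and CD8+ cells came from the same livers, and the sample numbers in the titles put the replicate 1 libraries in 1 unbroken run and the replicate 2 libraries in another. Both STAT3-deficient groups carry floxed Stat3 and a Cre driven by Cd4 regulatory sequences. Stat3 was thus targeted in CD4+ and CD8+ donor T cells alike, and the doubly deficient group lacks Pdcd1 from the germline. Marrow donors and recipients were alike in all groups, WT T cells carried no Cre, and the ages of the mice were not given in the sources used here. The libraries held 21676125 to 24551477 counted reads. Because the cells were sorted on CD4 or CD8 protein, the coreceptor genes between subsets only check the sort. The 4 factors were not used in the sort. The part of the sort in the coreceptors' change between genotypes within a subset was not tested.

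The 7 genes lie on 5 chromosomes of the mouse genome (mm10). Cd4 spans chr6:124864693-124888200 on the minus strand. Cd8b1 (chr6:71322788-71337492) and Cd8a (chr6:71373427-71379171) lie in the same orientation on the plus strand with 35934 bases between them. Zbtb7b is at chr3:89377644-89393378 (minus), Runx3 at chr4:135120645-135177990 (plus), Runx1 at chr16:92601466-92826074 (minus) and Gata3 at chr2:9857078-9878600 (minus). Zbtb7b overlaps Gm15417 on the opposite strand, and its 3′ end lies 1 base from Dcst2. Whether counting used strand was not stated for these files, but Gm15417 had only 11 to 44 reads per library against 951 to 5800 for Zbtb7b.

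The promoter sequences show which of these genes carry the letters that Runx proteins, STAT proteins and GATA factors read. RefSeq windows (build GRCm38.p6) from 250 bases before to 50 bases after an annotated start were matched for 5 of the 7 genes. No window was found for Cd4 and Cd8b1. There were 8 windows in all, since Zbtb7b, Runx3 and Runx1 each have an upstream and a downstream start. Both strands were searched. The Runx motif TGTGGT occurs in 16.8% of all 32851 windows of this length in the table. The STAT motif TTCNNNGAA occurs in 8.3% of them. The GATA motif was searched as AGATAA and occurs in 11.2%. No match in these 8 windows overlapped another. TGTGGT was found in 3 of the 8 windows, those of the upstream start of Runx1, the upstream start of Runx3 and the downstream start of Zbtb7b, and the other two motifs in none. The upstream windows of Runx1 and Runx3 hold it as a pair inside an identical stretch of 18 bases, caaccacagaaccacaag, which was found in 4 of the 32851 windows: Runx1, Runx2, Runx3 and Gm16225, whose window lies on the opposite strand of that of Runx3. Capitals mark the Runx letters (ACCACA is TGTGGT on the other strand), and each line has 30 bases.
Runx1 upstream start, chr16:92826025-92826054, minus strand: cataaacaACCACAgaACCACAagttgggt
Runx2, chr17:44814583-44814612, minus strand: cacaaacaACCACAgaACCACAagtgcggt
Runx3 upstream start, chr4:135120503-135120532, plus strand: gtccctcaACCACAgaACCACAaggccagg
Zbtb7b downstream start, chr3:89387743-89387772, minus strand: ctggcgaggaacTGTGGTatgtgagtgggt
The 250 bases before the start of Cd8a, the coreceptor gene with the largest fall against WT below, hold none of the 3 motifs and therefore no capitals.
Cd8a, chr6:71373177-71373426, plus strand: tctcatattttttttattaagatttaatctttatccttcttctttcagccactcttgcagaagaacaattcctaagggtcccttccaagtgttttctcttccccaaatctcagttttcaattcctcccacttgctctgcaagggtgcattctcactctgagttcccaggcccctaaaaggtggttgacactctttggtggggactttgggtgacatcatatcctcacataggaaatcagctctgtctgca
Reads were counted per gene, so the start in use cannot be told from these values.

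The genotypes and the sort were first checked. Stat3 was at 365 to 467 CPM in the 4 WT libraries and at 136 to 237 CPM in the 8 STAT3-deficient ones. The highest of the latter, 221 CPM in CD4+ and 237 CPM in CD8+ cells, were STAT3-/-PD-1-/- replicate 2. Stat3 itself did not pass edgeR's quasi-likelihood test in STAT3-/- against WT cells (adjusted p = 0.0550 in CD4+ and 0.108 in CD8+ cells). Pdcd1 was at 26.2 to 93.9 CPM in the 4 STAT3-/-PD-1-/- libraries against 235 CPM or more in the others. In CD4+ libraries Cd4 had 30578 to 44419 reads, whereas CD8+ libraries had 8 to 67 Cd4 reads. These were at most 0.214% of the mean level in the CD4+ libraries of the same genotype. In CD8+ libraries Cd8a had 13462 to 33522 reads, whereas the CD4+ libraries had 9 to 142. The highest of these, 142 reads in STAT3-/-PD-1-/- replicate 2, was 0.954% of the mean Cd8a level in the CD8+ libraries of the same genotype. The other 5 CD4+ libraries were at 0.038% to 0.189%. The levels behind every comparison below are read counts scaled to a common library size with TMM factors (CPM), and they are drawn for each library in the plot of levels.

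**Figure D1:**
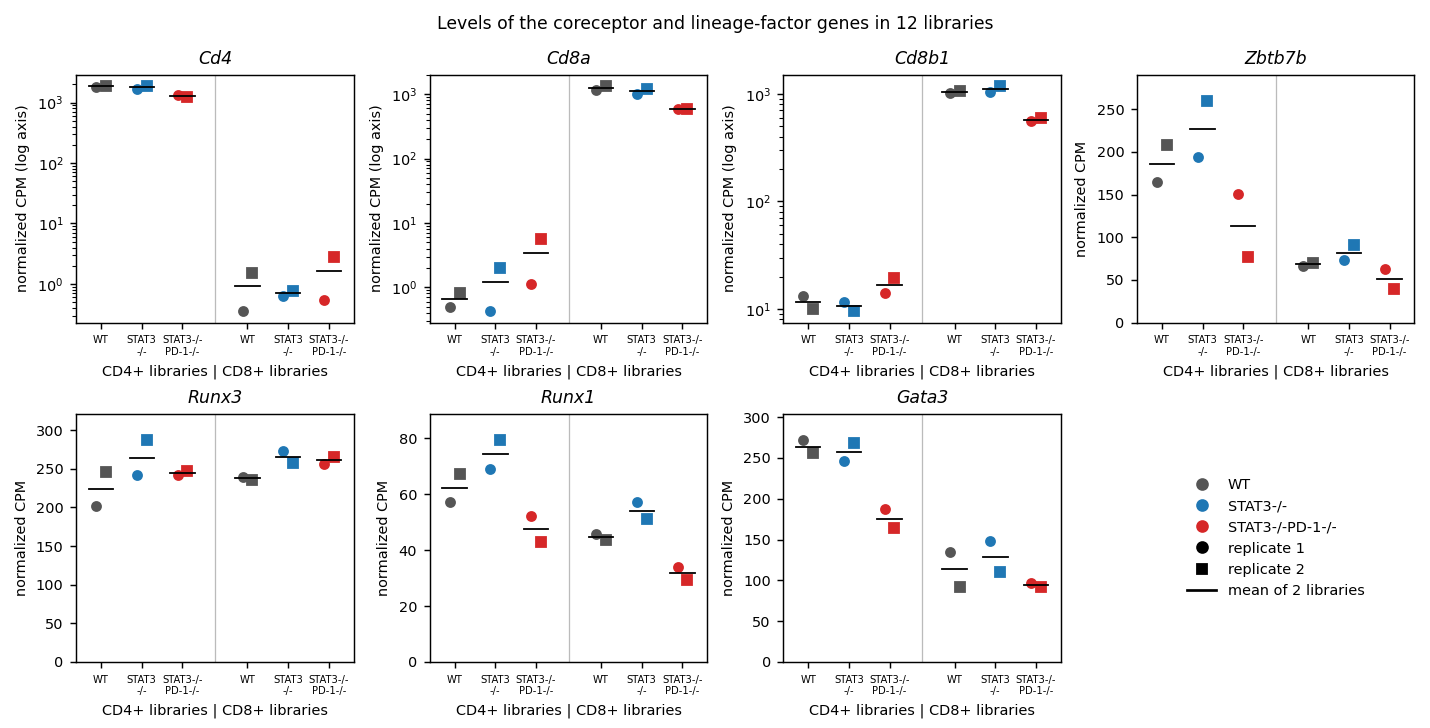
Normalized CPM of each gene (y axis, logarithmic for Cd4, Cd8a and Cd8b1, linear from 0 for the others) in the 12 libraries by subset and genotype (x axis); circles are replicate 1, squares replicate 2, bars the mean of both. Cd8a and Cd8b1 sit at 556 to 597 CPM in STAT3-/-PD-1-/- CD8+ cells and at 1015 to 1347 CPM in the other CD8+ cells, while Runx3 lies between 201 and 287 CPM in all libraries.

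The clearest difference among the coreceptors was in CD8+ T cells that lacked both STAT3 and PD-1, where Cd8a and Cd8b1 fell by about the same factor. Cd8a was at 1174 and 1347 CPM in WT, 1015 and 1185 CPM in STAT3-/- and 597 and 594 CPM in STAT3-/-PD-1-/- libraries. Cd8b1 was at 1018 and 1063 CPM in WT, 1028 and 1185 CPM in STAT3-/- and 556 and 589 CPM in STAT3-/-PD-1-/- libraries. For both genes each doubly deficient library lay below each library of the other two genotypes, which overlapped each other. As compared with WT, Cd8a was 2.12-fold lower (log2 fold change -1.09 ± 0.12 SE, adjusted p = 0.00414) and Cd8b1 1.82-fold lower (-0.87 ± 0.11, adjusted p = 0.00531), by edgeR's quasi-likelihood test adjusted over 12002 genes. As compared with STAT3-/-, the same doubly deficient libraries gave -0.89 ± 0.12 for Cd8a (adjusted p = 0.00700) and -0.95 ± 0.11 for Cd8b1 (adjusted p = 0.00454). Runx1 was the third of the 7 genes to pass in both contrasts. The 3 of 7 compare with 17.2% of all genes called in either direction (8.21% lower) against WT and 16.8% (8.05% lower) against STAT3-/-. Of the 7 genes, 5 did not overlap between doubly deficient and WT libraries, beside 59.7% of all genes, and 5 between doubly deficient and STAT3-/- libraries, beside 63.0%. Both CD8 genes kept their direction in each fit, but without STAT3-/-PD-1-/- replicate 2 their adjusted p-values were 0.0546 and 0.0570 against WT and 0.0751 and 0.0593 against STAT3-/-. In bulk RNA, fewer cells expressing a gene and less RNA per cell cannot be told apart.

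Loss of STAT3 alone did not give such a difference. Between STAT3-/- and WT CD8+ cells the log2 fold change was -0.20 for Cd8a (95% interval -0.47 to 0.07) and 0.09 for Cd8b1 (-0.16 to 0.34). None of the 7 genes passed the test in CD8+ cells or in CD4+ cells, none had an unadjusted p under 0.05, beside 11% of all genes in CD8+ and 10.5% in CD4+ cells, and DESeq2 and limma called none of them either. In these contrasts 0.0583% of all genes were called in CD8+ cells and 0.334% in CD4+ cells. In CD8+ cells 3 of the 7 genes did not overlap, beside 43.5% of all genes, and in CD4+ cells 1, Runx1, beside 38.2%. The intervals were wide for some genes, from -0.44 to 1.00 for Zbtb7b in CD4+ cells, so the genotypes were not shown to be alike.

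Cd4 itself fell in doubly deficient CD4+ T cells. Its level was 1827 and 1879 CPM in WT, 1685 and 1899 CPM in STAT3-/- and 1326 and 1252 CPM in STAT3-/-PD-1-/- libraries. The last pair lay below the other 4 libraries, and WT lay within the range of STAT3-/-. As compared with WT, Cd4 was 1.43-fold lower (-0.52 ± 0.13, adjusted p = 0.0375), and as compared with STAT3-/- the log2 fold change was -0.46 ± 0.13 with an adjusted p of 0.0554, or 0.0204 with the replicate number as a block. Leaving out any 1 of the 4 libraries compared with each other took the first call away, with adjusted p-values up to 0.213 and log2 fold changes of -0.55 to -0.48, and limma on log2(RPKM + 1) gave an adjusted p of 0.0541. Whether the fall of Cd4 in CD4+ cells and that of Cd8a or Cd8b1 in CD8+ cells differ in size was not tested, since they are different genes in different cells.

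**Figure D2:**
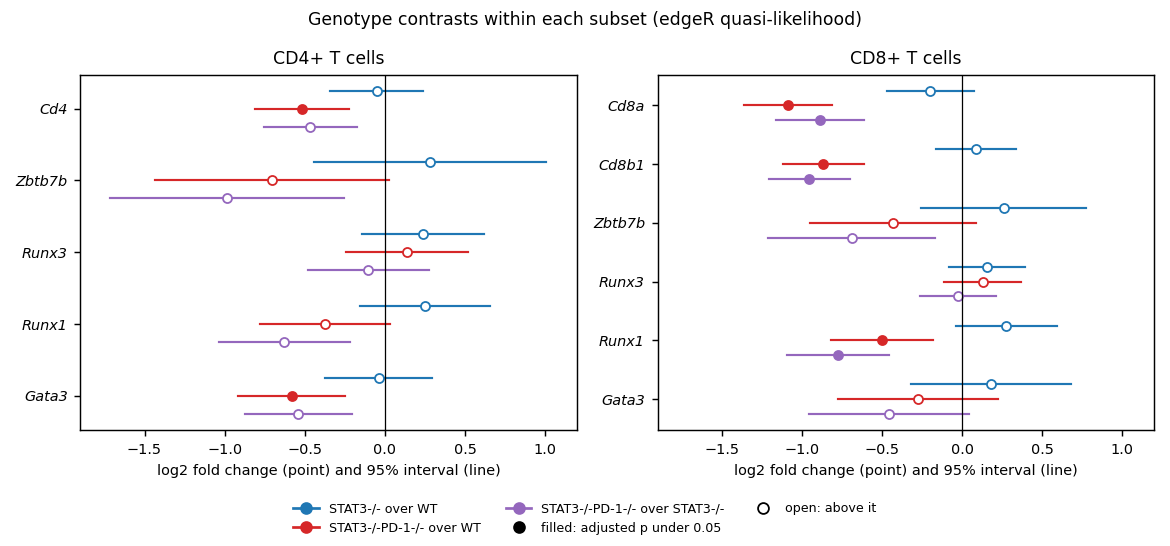
Log2 fold change (point) with its 95% interval (line) for the 3 genotype contrasts in CD4+ (left) and CD8+ (right) T cells, with filled points where the adjusted p was under 0.05; the coreceptor of the other subset is not drawn. Filled points lie at Cd4 (-0.52) and Gata3 (-0.58) on the left, and at Cd8a (-1.09 and -0.89), Cd8b1 (-0.87 and -0.95) and Runx1 (-0.50 and -0.77) on the right.

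Cd8b1 was not silent in CD4+ cells. The 6 CD4+ libraries held 237 to 290 reads in WT, 212 to 249 in STAT3-/- and 325 to 488 in STAT3-/-PD-1-/-, or 10.0 to 13.1, 9.48 to 11.7 and 14.1 to 19.5 CPM. The doubly deficient libraries were above the other 4. The pair was not in the proportion seen in CD8+ cells: Cd8b1 had 0.789 to 1.01 reads per Cd8a read in the CD8+ libraries and 3.44 to 27.7 in the CD4+ libraries. At the mean proportion of the CD8+ libraries of the same genotype, the Cd8a reads in CD4+ cells would go with 9.06 to 136 Cd8b1 reads. The 136 was for STAT3-/-PD-1-/- replicate 2, the library with 488. In CD4+ cells the log2 fold change of Cd8b1 was 0.55 ± 0.25 against WT (adjusted p = 0.196) and 0.68 ± 0.25 against STAT3-/- (adjusted p = 0.122), and neither passed. Cd8a in the same cells gave 2.39 ± 0.90 against WT on 11 to 142 reads (adjusted p = 0.129), and without replicate 2 of the doubly deficient cells 0.79. It passed against WT with the replicate number as a block (2.21 ± 0.43, adjusted p = 0.00883), with DESeq2 (0.0448), with no filter on low counts (0.0456) and in a fit of only the 4 libraries compared (0.0432), and against STAT3-/- with the block alone (1.48 ± 0.40, adjusted p = 0.0304).

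**Figure D3:**
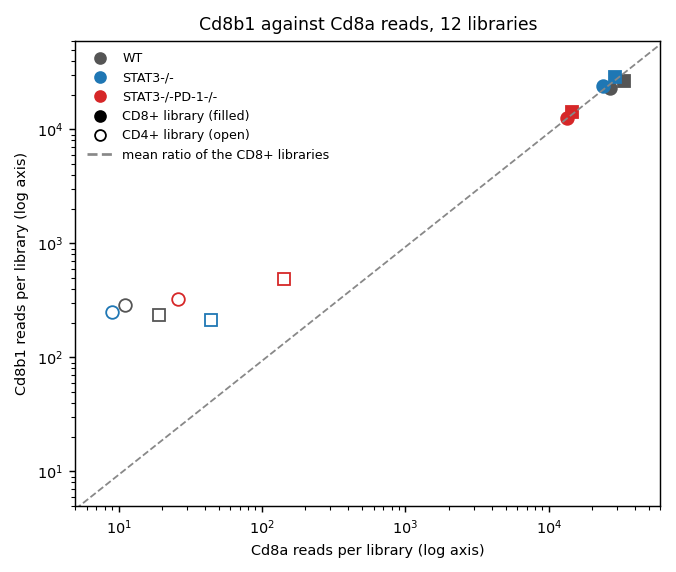
Reads of Cd8b1 (y axis) against reads of Cd8a (x axis), both logarithmic, in 6 CD8+ (filled) and 6 CD4+ (open) libraries; the dashed line is the mean ratio of the CD8+ libraries. CD8+ libraries lie along the line, with the STAT3-/-PD-1-/- pair lowest, and the 6 CD4+ libraries lie above it at 212 to 488 Cd8b1 reads.

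Whether the genotype difference of Cd8b1, lower in doubly deficient CD8+ cells and not called in CD4+ cells, itself differed by subset was put to an interaction test on all 12 libraries. The CD8+ minus CD4+ difference was -1.40 ± 0.26 for STAT3-/-PD-1-/- against WT (unadjusted p = 0.00025, adjusted p = 0.129) and -1.63 ± 0.26 against STAT3-/- (unadjusted p = 7.85e-05, adjusted p = 0.274). With a block for the pool of livers, taken to be shared by CD4+ and CD8+ libraries of the same genotype and number although no source used here states that the numbers match between subsets, it was -1.40 ± 0.22 (adjusted p = 0.0335) and -1.62 ± 0.22 (adjusted p = 0.0471). On filtered genes and without the block none of the 7 genes passed by edgeR's test in any of the 3 interactions (percent of all genes called, 0, 0.00811 and 0). At an unadjusted p under 0.05 there were 0, 2 and 2, the 2 being Cd8a and Cd8b1, beside 1.85%, 4.43% and 3.59% of all genes. With no filter on low counts edgeR called Cd8b1 in both interactions that involve the doubly deficient cells (adjusted p = 0.00491 and 0.00803) and Cd8a in that against WT (adjusted p = 0.00912). DESeq2 called Cd8b1 in the same 2 interactions, and limma on log2(RPKM + 1) called none. With the pool as a block 84 and 22 genes of the whole table (0.681% and 0.178%) were called in these 2 interactions, against 1 and 0 without it, and the lowest adjusted p of the 4 factors was 0.502.

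Among the factors, Gata3 in all 3 genotypes and Zbtb7b in WT and STAT3-/- cells were higher in CD4+ than in CD8+ cells, while Runx3 passed in none. Zbtb7b, the CD4 lineage factor, was at 164 and 208 CPM in WT CD4+ and 65.8 and 70.5 CPM in WT CD8+ libraries. In STAT3-/- cells the values were 194 and 259 CPM against 72.9 and 90.4 CPM, and in STAT3-/-PD-1-/- cells 150.4 and 77.1 CPM against 62.4 and 39.2 CPM. The subsets did not overlap within any genotype, but STAT3-/-PD-1-/- CD4+ replicate 2 was lower than STAT3-/- CD8+ replicate 2. CD8+ against CD4+, the log2 fold change was -1.45 ± 0.31 in WT (adjusted p = 0.0155), -1.47 ± 0.31 in STAT3-/- (adjusted p = 0.0161) and -1.17 ± 0.31 in STAT3-/-PD-1-/- (adjusted p = 0.0724). With the pool as a block the last was -1.13 ± 0.10 with an adjusted p of 0.000418. Within a pool the difference was -1.27 and -0.98 for replicates 1 and 2 of the doubly deficient cells, and replicate 2 was the lower one for Zbtb7b in both subsets. The calls in WT and in STAT3-/- cells were lost without CD4+ replicate 2, CD8+ replicate 1 or CD8+ replicate 2 of that genotype, with adjusted p-values up to 0.101 in WT and 0.130 in STAT3-/- cells.

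Gata3, which acts before Zbtb7b in the CD4 fate, was at 271 and 256 CPM in WT CD4+ and at 135 and 92.2 CPM in WT CD8+ libraries. The CD8+ to CD4+ log2 fold change was -1.21 ± 0.20 in WT (adjusted p = 0.00357), -0.99 ± 0.20 in STAT3-/- (adjusted p = 0.0112) and -0.90 ± 0.20 in STAT3-/-PD-1-/- (adjusted p = 0.0309). The call in STAT3-/- cells was lost without CD4+ or CD8+ replicate 2 (adjusted p = 0.0561 and 0.0780) and that in STAT3-/-PD-1-/- cells without any 1 of its 4 libraries (up to 0.174). Runx3 was at 201 and 245 CPM in WT CD4+ and at 239 and 236 CPM in WT CD8+ libraries, and the log2 fold changes were 0.09, 0.01 and 0.09 in the 3 genotypes, each with a 95% interval within -0.27 to 0.37. Runx1 was at 57.0 and 67.2 CPM in WT CD4+ against 45.7 and 43.5 CPM in WT CD8+ libraries. Its log2 fold changes of -0.48, -0.45 and -0.59 had adjusted p-values of 0.0808, 0.102 and 0.0621, and with the pool as a block 0.0199, 0.0242 and 0.0137. In these comparisons 10.5%, 9.62% and 4.14% of all genes were called (1294, 1187 and 511 genes), and 24.3%, 24.9% and 14.4% with the pool as a block (2991, 3077 and 1774 genes). Of the 4 factors, which the sort did not use, 2, 2 and 1 passed without the block, all lower in CD8+ cells, where 5.59%, 4.82% and 2.5% of all genes were lower. With the block 3, 3 and 3 passed, all lower, beside 13%, 12.8% and 8.49% of all genes. Of the 4 factors 3, 3 and 4 did not overlap between the subsets, the last including Runx3, beside 48.1%, 47.4% and 46.2% of all genes.

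Between genotypes, Runx1 in CD8+ cells and Gata3 in CD4+ cells were the 2 factors that passed. In CD8+ cells Runx1 was at 45.7 and 43.5 CPM in WT, 57.2 and 51.0 CPM in STAT3-/- and 34.1 and 29.2 CPM in STAT3-/-PD-1-/- libraries. The doubly deficient libraries were the lowest and the 3 genotypes did not overlap. Runx1 fell by 0.50 ± 0.14 on the log2 scale against WT (adjusted p = 0.0448) and by 0.77 ± 0.14 against STAT3-/- (adjusted p = 0.0139). The first call was lost when any 1 of the 4 libraries was left out (adjusted p-values up to 0.180), by limma (0.0925) and in a fit of only those 4 libraries (0.0621), and the second without STAT3-/- replicate 1 (0.0527) or STAT3-/-PD-1-/- replicate 2 (0.0983). In CD4+ cells Runx1 was at 57.0 and 67.2, 69.2 and 79.2, and 52.4 and 43.0 CPM in the same order of genotypes, with log2 fold changes of -0.37 ± 0.17 against WT (adjusted p = 0.208) and -0.63 ± 0.17 against STAT3-/- (adjusted p = 0.0599, or 0.0245 with the replicate number as a block).

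Gata3 fell in doubly deficient CD4+ cells. It was at 271 and 256 CPM in WT, 246 and 269 CPM in STAT3-/- and 187 and 164 CPM in STAT3-/-PD-1-/- libraries, so that the last 2 lay below the other 4. The log2 fold change was -0.58 ± 0.14 against WT (adjusted p = 0.0391) and -0.54 ± 0.14 against STAT3-/- (adjusted p = 0.0525, or 0.0156 with the replicate number as a block). Cd4 and Gata3 were the 2 of 7 genes called against WT, beside 12.9% of all genes (5.65% lower). Against STAT3-/- none of the 7 was called beside 11.1% of all genes (5.03% lower), with 5 at an unadjusted p under 0.05 (Cd4, Cd8b1, Zbtb7b, Runx1 and Gata3) beside 29.4% of all genes, 4 called by DESeq2 and none by limma. With the replicate number as a block 5 of the 7 passed against STAT3-/-, Cd4, Zbtb7b, Runx1 and Gata3 lower and Cd8a higher, beside 26% of all genes (12.8% lower). Against WT 3 passed with the block, Cd4, Gata3 and Cd8a, also beside 26% (12.2% lower). Of the 7 genes 6 did not overlap between doubly deficient and WT CD4+ libraries, beside 59.0% of all genes, and 5 against STAT3-/-, beside 59.1%. The Gata3 call was also lost when any 1 of the 4 libraries was left out, with adjusted p-values up to 0.235. In CD8+ cells Gata3 was at 135 and 92.2, 148 and 110.4, and 96.4 and 91.9 CPM, with log2 fold changes of -0.28 and -0.46 that did not pass (adjusted p = 0.407 and 0.175).

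Zbtb7b passed in no contrast between genotypes by edgeR's test over all libraries of a subset with the filter and without a block, and replicates 1 and 2 of the doubly deficient cells were far apart. Its log2 fold change in CD4+ cells was -0.70 ± 0.31 against WT (adjusted p = 0.186) and -0.99 ± 0.31 against STAT3-/- (adjusted p = 0.0852). For the pairs of the same number it was -0.13 and -1.43 against WT, so that the difference rested on replicate 2, and -0.37 and -1.75 against STAT3-/-, lower in both. Against STAT3-/- it passed in CD4+ cells with the replicate number as a block (adjusted p = 0.0450), with DESeq2 (0.0163), with no filter (0.0282) and without STAT3-/- replicate 1 (0.0451). With 1 library left out the log2 fold change in CD4+ cells ran from -1.26 to -0.31 against WT and from -1.54 to -0.59 against STAT3-/-, nearest to 0 in both without STAT3-/-PD-1-/- replicate 2. In CD8+ cells the values were -0.43 ± 0.22 (adjusted p = 0.218) and -0.69 ± 0.22 (adjusted p = 0.0718), the latter passing with DESeq2 (0.0199), with no filter (0.0274) and without STAT3-/-PD-1-/- replicate 1 (0.0366). With 1 library left out they ran from -0.82 to -0.14 and from -1.08 to -0.40, again nearest to 0 without STAT3-/-PD-1-/- replicate 2. Runx3, by contrast, was at 239 and 236 CPM in WT, 273 and 257 CPM in STAT3-/- and 256 and 266 CPM in STAT3-/-PD-1-/- CD8+ libraries, and its 95% interval for STAT3-/-PD-1-/- against WT was -0.11 to 0.37 in CD8+ and -0.24 to 0.52 in CD4+ cells.

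Per length, the coreceptor of its own subset was far the most abundant of the 7 genes, followed by Runx3 and Gata3. By deposited RPKM (reads per kilobase of exon, scaled to a library size set by the authors), Cd4 was at 608 ± 12.4 (SD, n = 2) in WT CD4+ cells, followed by Gata3 at 83.1 ± 3.29, Runx3 at 54.7 ± 7.67, Zbtb7b at 39.3 ± 6.50, Runx1 at 8.52 ± 0.99, Cd8b1 at 7.89 ± 1.47 and Cd8a at 0.210 ± 0.071. Runx1 and Cd8b1 overlapped in this order and the other neighbours did not. In WT CD8+ cells Cd8b1 was at 714 ± 9.11 and Cd8a at 409 ± 32.6, followed by Runx3 at 58.4 ± 1.64, Gata3 at 36.0 ± 10.2, Zbtb7b at 14.5 ± 0.43, Runx1 at 6.15 ± 0.33 and Cd4 at 0.300 ± 0.259, with no overlap between neighbours. Ratios of RPKM within a library bring the uneven changes together. Runx3 per Runx1 was 6.30 and 6.52 in WT, 6.25 and 6.46 in STAT3-/- and 8.25 and 10.2 in STAT3-/-PD-1-/- CD4+ libraries, and 9.34 and 9.67, 8.51 and 9.01, and 13.4 and 16.2 in CD8+ libraries. In both subsets the doubly deficient libraries were above the other 4. Runx3 per Zbtb7b was 1.42 and 1.37 in WT and 1.87 and 3.71 in STAT3-/-PD-1-/- CD4+ libraries, and 4.21 and 3.88 against 4.755 and 7.86 in CD8+ libraries. With 2 libraries against 2 an exact permutation test cannot give a p below 0.333, so the ratios are given as values.

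**Figure D4:**
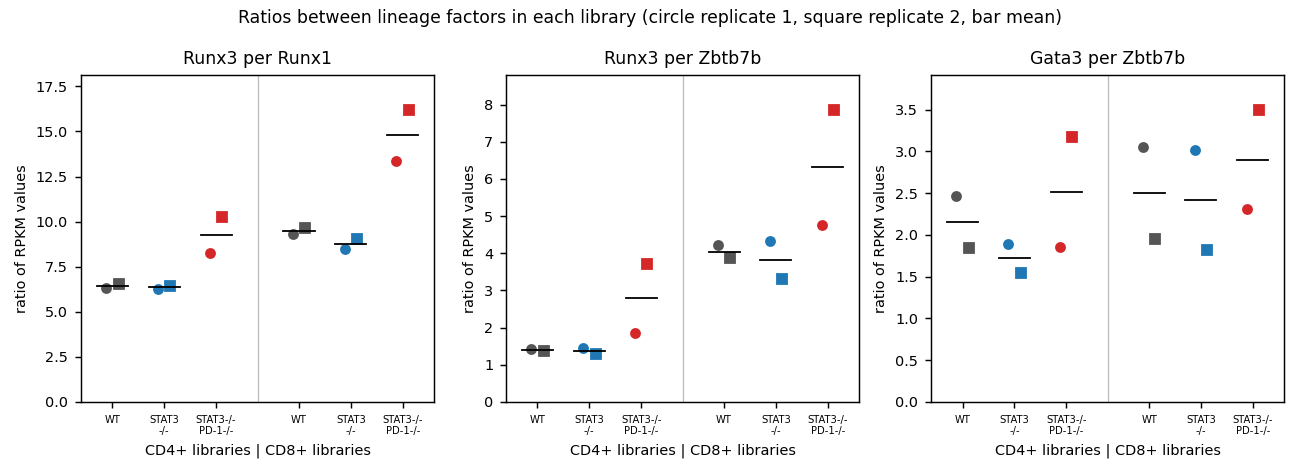
Ratio of RPKM values (y axis, from 0) of Runx3 to Runx1, Runx3 to Zbtb7b and Gata3 to Zbtb7b in each library, by subset and genotype (x axis), with bars at the mean of 2 libraries. Runx3 per Runx1 is highest in STAT3-/-PD-1-/- libraries of each subset (8.25 and 10.2 in CD4+, 13.4 and 16.2 in CD8+), whereas Gata3 per Zbtb7b overlaps between genotypes.

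The neighbours of the coreceptor genes did not all move with them. Rmnd5a, the gene on the other side of Cd8a, had a log2 fold change of -0.10 ± 0.11 in STAT3-/-PD-1-/- against WT CD8+ cells (adjusted p = 0.578), and Gm1070 beside Cd8b1 -0.10 ± 0.64. Lag3, an inhibitory receptor for MHC class II that lies 16158 bases from Cd4, was at 315 and 302 CPM in WT, 238 and 232 CPM in STAT3-/- and 212 and 207 CPM in STAT3-/-PD-1-/- CD8+ libraries. It fell by 0.56 ± 0.10 in the doubly deficient cells against WT (adjusted p = 0.0138), in cells with almost no Cd4 reads, while in CD4+ cells, where Cd4 fell, its log2 fold change was -0.21 ± 0.20 (adjusted p = 0.531). The interaction for Lag3 in this contrast was -0.35 ± 0.22 (unadjusted p = 0.147 by edgeR's test), so that a difference between the subsets was not shown. Clic4, the gene 35979 bases beyond Runx3, rose in doubly deficient against WT cells by 0.83 ± 0.16 in CD4+ (adjusted p = 0.0193) and 0.59 ± 0.14 in CD8+ cells (adjusted p = 0.0312), whereas Runx3 did not pass in either.

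Of the 7 genes that relay coreceptor signals (Lck, Fyn, Csk, Ptprc, Zap70, Lat and Themis), 4 were lower and none higher in STAT3-/-PD-1-/- against WT CD8+ cells, beside 17.2% of all genes called (8.21% lower), with a median log2 fold change of -0.46 beside -0.001 over all genes. Against WT, Fyn, the kinase akin to Lck, fell by 0.81 ± 0.11 (adjusted p = 0.00666), Ptprc, the phosphatase CD45 that activates Lck, by 0.63 ± 0.11 (adjusted p = 0.0141), and Lat, the adaptor below the receptor, by 0.62 ± 0.13 (adjusted p = 0.0205). Lck, which binds both coreceptors, was the fourth and fell by 0.46 ± 0.10 (adjusted p = 0.0210). Against STAT3-/- 3 of the 7 were lower in CD8+ cells (Fyn, Lck and Ptprc), beside 16.8% of all genes called (8.05% lower). In doubly deficient against WT CD4+ cells none of the 7 passed, with a median of -0.36 beside -0.011 over all genes. Lck was at -0.36 ± 0.13 there (adjusted p = 0.113), and the interaction for Lck in this contrast was -0.08 ± 0.15, so that a difference between the subsets was not shown.

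Other regulators of the CD4 and CD8 choice changed in both directions. Of 19 such genes, 2 were higher and 8 lower in STAT3-/-PD-1-/- against WT CD4+ cells, and 1 higher and 5 lower in CD8+ cells, with medians of -0.19 and -0.18, where 12.9% of all genes were called in CD4+ cells (5.65% lower) and 17.2% in CD8+ cells (8.21% lower). Against WT, Tcf7, a factor of early and memory T cells that acts with Lef1 upstream of Zbtb7b, fell by 2.89 ± 0.24 (adjusted p = 0.00208) in CD4+ cells. Against WT, Id3, an inhibitor of E proteins, fell by 3.18 ± 0.54 (adjusted p = 0.0120) in CD4+ and by 1.96 ± 0.46 (adjusted p = 0.0299) in CD8+ cells. Id3 had few reads, 53 and 98 in WT against 10 and 7 in doubly deficient CD4+ libraries. In CD8+ libraries it had 25 and 19 against 5 and 6. Myb, which acts before Gata3 in thymocytes, rose against WT by 1.32 ± 0.18 (adjusted p = 0.00635) in CD4+ cells and was also the 1 gene called higher in CD8+ cells. In CD8+ cells Bcl11b, which maintains T cell identity, fell by 1.11 ± 0.14 (adjusted p = 0.00511), and Id2, the E protein inhibitor of effector cells, by 1.38 ± 0.25 (adjusted p = 0.0135), both against WT. Between doubly deficient and STAT3-/- cells the counts were 1 higher and 6 lower in CD4+ and 1 higher and 2 lower (Bcl11b and Ets1) in CD8+ cells, beside 11.1% and 16.8% of all genes called. In STAT3-/- against WT CD4+ cells 1 of the 19 passed, beside 0.334% of all genes. It was Tox, which is needed for CD4 cells in the thymus and rose by 1.09 ± 0.15 (adjusted p = 0.0413).

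Many but not all genes that follow the lineages also differed between the subsets. Of 9 helper genes 8 were lower in WT CD8+ than in WT CD4+ cells, beside 10.5% of all genes called (5.59% lower), led by Cd40lg, the helper ligand for CD40, at -6.13 ± 0.23 (adjusted p = 4.93e-07). Of 15 cytotoxic genes 10 were higher, among them the adhesion receptor Crtam at 3.63 ± 0.23 and the factor Eomes at 3.24 ± 0.20. In STAT3-/- cells the counts were also 8 of 9 lower and 10 of 15 higher, beside 9.62% of all genes called (4.82% lower), and in STAT3-/-PD-1-/- cells 6 of 9 lower and 8 of 15 higher, beside 4.14% (2.5% lower). Against WT, the doubly deficient CD4+ cells had 6 of the 9 helper genes lower and none higher, beside 12.9% of all genes called (5.65% lower), and against STAT3-/- 4 lower and none higher, beside 11.1% (5.03% lower). Doubly deficient CD8+ cells had 4 of the 9 lower against WT (Foxp3, Icos, Maf and Tnfsf8) and 1 higher (Tnfrsf4), beside 17.2% of all genes called (8.21% lower), with a median of -1.105 beside -1.30 in CD4+ cells. In doubly deficient against WT CD4+ cells Cxcr5, the receptor of follicular helper cells, fell by 3.16 ± 0.28 (adjusted p = 0.00250), Foxp3, the regulatory T cell factor, by 2.91 ± 0.31 (adjusted p = 0.00395) and Tnfsf8 by 2.13 ± 0.26 (adjusted p = 0.00483). Cxcr5 also fell by 1.90 ± 0.26 in STAT3-/- against WT CD4+ cells (adjusted p = 0.0413). The doubly deficient CD8+ cells had 7 of the 15 cytotoxic genes lower and none higher against WT, beside 17.2% of all genes called (8.21% lower), and also 7 lower and none higher against STAT3-/-, beside 16.8% (8.05% lower). Among the 7 against WT were Itgae, the integrin chain CD103, which Runx3 is known to promote, at -2.87 ± 0.34 (adjusted p = 0.00493), the granzyme Gzma at -2.00 ± 0.16 (adjusted p = 0.00224) and the chemokine Ccl5 at -1.88 ± 0.12 (adjusted p = 0.00115). Itgae had 95 and 160 reads in WT against 15 and 19 in doubly deficient CD8+ libraries. Without a block Ccl5 was the 1 gene of the filtered table that edgeR called in an interaction, at -2.35 ± 0.17 for STAT3-/-PD-1-/- against WT (adjusted p = 0.000614), and its log2 fold change for that contrast in CD4+ cells was 0.48 ± 0.14 (adjusted p = 0.0684). In STAT3-/- against WT CD4+ cells Ccl5 rose by 1.67 ± 0.15 (adjusted p = 0.0125) and the activating receptor Klrk1 by 2.10 ± 0.29 (adjusted p = 0.0413), while Gzma was at -1.08 ± 0.16 in STAT3-/- against WT CD8+ cells and did not pass (adjusted p = 0.120). In STAT3-/-PD-1-/- against WT CD4+ cells 3 cytotoxic genes were higher and 2 lower, beside 12.9% of all genes called (5.65% lower), with Eomes at 1.40 ± 0.26 (adjusted p = 0.0158) and Itgae at -2.55 ± 0.27 (adjusted p = 0.00389).

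Of 11 genes bound up with Gata3 and type 2 cells, 9 could be tested in CD4+ and 7 in CD8+ cells. In STAT3-/-PD-1-/- against WT CD4+ cells, where Gata3 fell, 3 were lower and none higher, beside 12.9% of all genes called (5.65% lower): Ptgdr2, the prostaglandin receptor of type 2 cells, at -2.10 ± 0.39 (adjusted p = 0.0164), Il4ra, the receptor chain for IL-4, at -0.92 ± 0.19 (adjusted p = 0.0236) and Il1rl1, the receptor for IL-33, at -0.81 ± 0.15 (adjusted p = 0.0152). Ptgdr2 had few reads, 39 and 44 in WT against 9 and 11 in doubly deficient CD4+ libraries. In doubly deficient against WT CD8+ cells 2 of the 7 tested were higher and none lower, beside 17.2% of all genes called. They were the chemokine receptors Ccr8 at 1.94 ± 0.34 (adjusted p = 0.0128) and Ccr4 at 1.58 ± 0.31 (adjusted p = 0.0175). The medians of the list were -0.81 and -0.05. Against STAT3-/- 1 of 9 was lower in CD4+ cells, Il1rl1, near the 11.1% of all genes called there, and the same 2 chemokine receptors of 7 genes were higher in CD8+ cells, beside 16.8%. Il4ra in CD4+ cells was at 115 and 86.5 CPM in WT, 65.4 and 57.7 CPM in STAT3-/- and 47.5 and 58.1 CPM in STAT3-/-PD-1-/- libraries, so that the STAT3-deficient genotypes overlapped each other and lay below WT.

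**Figure D5:**
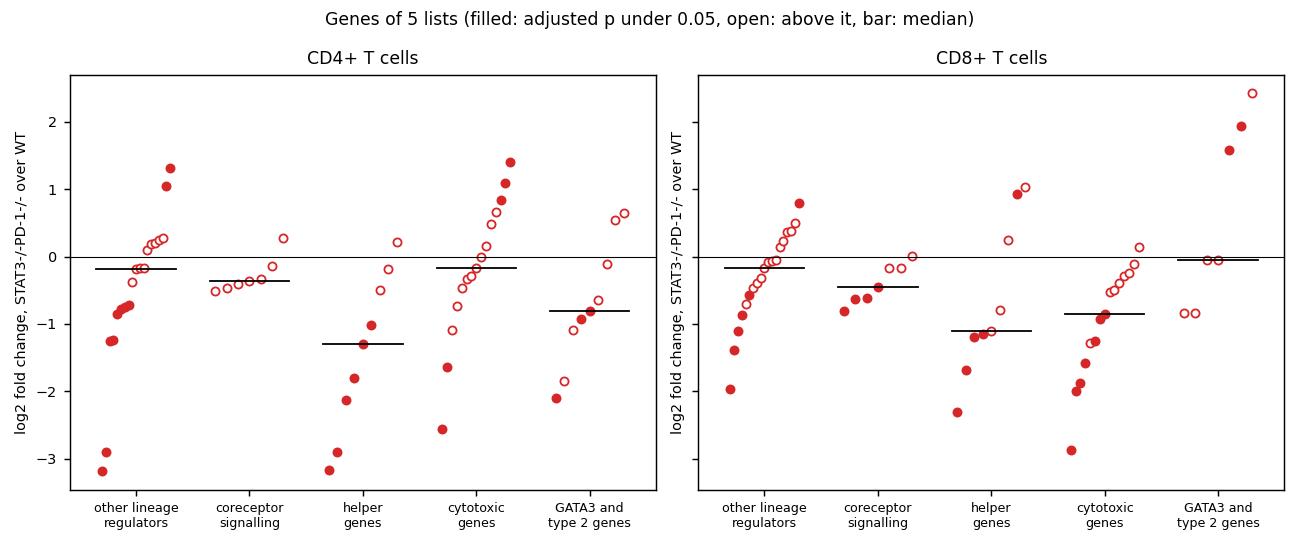
Log2 fold change of STAT3-/-PD-1-/- over WT (y axis) for each tested gene of 5 lists in CD4+ (left) and CD8+ (right) T cells, with filled points where the adjusted p was under 0.05 and bars at the median. In CD8+ cells 4 of 7 coreceptor signalling genes and 7 of 15 cytotoxic genes are filled and below 0; in CD4+ cells 6 of 9 helper genes are.

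Markers of other cells moved with some of these results. The 8 T cell markers, led by Thy1, summed to 5180 and 5387 CPM in WT, 4735 and 5074 CPM in STAT3-/- and 3947 and 4044 CPM in STAT3-/-PD-1-/- CD8+ libraries, and 4 of the 8 were lower in the last against WT. In this contrast 17.2% of all genes were called (8.21% lower). Of the dendritic cell markers 4 of 8 could be tested and 1, Itgax, was lower; the 8 summed to 389 and 371 CPM in WT and 34.7 and 29.7 CPM in doubly deficient CD8+ libraries. Itgax, which activated T cells also express, made up 386 and 365 CPM of the former, while Siglech was at 0 in all 12 libraries. The 13 myeloid markers summed to 97.0 and 103 CPM against 25.7 and 26.3 CPM, led by Itgam. Itgam alone made up 67.2 and 67.1 CPM of the former and 8.07 and 6.55 CPM of the latter. Among the 6 tested, Itgam and Cd68 were lower. Cd79b, the 1 B cell marker tested, and Klrb1c, 1 of 3 NK cell markers tested, were also lower in doubly deficient than in WT CD8+ cells. Against STAT3-/- CD8+ cells 2 of 8 T cell, 2 of 6 myeloid, 1 of 4 dendritic cell and 1 of 1 B cell markers were lower. Of the 3 NK cell markers 1 was higher and 0 lower there, beside 16.8% of all genes called (8.05% lower). In doubly deficient against WT CD4+ cells, where Cd4 and Gata3 fell, the T cell markers summed to 4648 and 4561 CPM against 5518 and 5306 CPM with 1 of 8 lower (Cd2), and the myeloid markers to 21.3 and 18.97 CPM against 56.3 and 71.2 CPM with 1 of 6 lower (Itgam). Of all genes 12.9% were called in this CD4+ contrast (5.65% lower). The dendritic cell markers there summed to 36.3 and 46.4 CPM against 82.9 and 79.4 CPM, with Itgax lower and Cd74 higher among the 4 tested. The NK cell markers summed to 31.7 and 25.1 CPM against 16.9 and 18.0 CPM, with Fcer1g higher among the 3 tested. The 7 B cell markers reached at most 14.7 CPM, nearly all of it Cd79b, with Ms4a1 and Blnk at 0 in all 12 libraries, and the 6 NK cell markers at most 81.2 CPM, led by Klrb1c, with Klra4 and Klra8 at 0 in all 12. Hepatocyte (9 genes), endothelial and stellate (9) and erythroid markers (6) summed to at most 1.29, 3.68 and 0.564 CPM. The part of these marker differences in the falls of Cd8a, Cd8b1, Cd4 and Gata3 was not tested.

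Across the 12 libraries, with each subset set to the same mean, Runx1 followed Zbtb7b (Pearson r = 0.879) and Gata3 (r = 0.799), and Zbtb7b followed Gata3 (r = 0.680). The genes whose log2 CPM was most like that of each factor were Stk10 (r = 0.992), Kat6a and Irak4 for Runx1, Dennd4b (r = 0.983), Snx33 and Bdp1 for Zbtb7b, Rap1gds1 (r = 0.978), Smco4 and Trim26 for Gata3, and Map3k4 (r = 0.947), Ylpm1 and Sap130 for Runx3, out of 8605 candidates. For the coreceptors they were Pacc1 (r = 0.790), Bckdha and Tmed4 for Cd4, Tagap1 (r = 0.794), Tbc1d14 and 2610318N02Rik for Cd8a, and Cd68 (r = 0.851), Taldo1 and Ifi27 for Cd8b1. The 12 points share genotype, pool and depth, and for Cd4 and Cd8a 6 of them rest on few reads, so these are descriptions only.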

How the data were processed

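RNA-Seq libraries (12, in 6 groups of 2) were single-end, aligned with STAR and counted per RefSeq gene with HTSeq by the authors, whose deposited table holds raw read counts and RPKM values per library on mm10. Labels gave the groups; their culture and library-kit texts describe other cells and another kit than the study's methods and were not used. Of 25078 genes, those passing edgeR's filterByExpr (minimum count 10, minimum total 15) were tested: 11959 in CD4+, 12002 in CD8+ and 12334 over all 12 libraries. Genotypes were compared within a subset, and subsets and interactions over all libraries, by edgeR 4.0.16 (R 4.3.3) with TMM scaling and the quasi-likelihood test, with Benjamini-Hochberg adjustment over all genes and a threshold of 0.05. SE is the log2 fold change divided by the square root of F. DESeq2 1.42.0, limma 3.58.1 on log2(RPKM + 1), RLE scaling, no filter, replicate blocks, only the 4 libraries compared, and each library left out were alternatives. The steps were tested on simulated data. Each library combined several recipients, and the study describes its liver data as combined from replicate experiments without naming the libraries of each.

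Same-numbered CD4+ and CD8+ libraries of a genotype were paired as a pool because the study took both from the same livers, though no source used here states that the numbers match, and their replicate 1 minus replicate 2 differences correlated at 0.588, 0.583 and 0.646 over 12334 genes. Across genotypes, same-numbered libraries correlated at 0.198 to 0.63 in CD4+ cells, where the replicate number was taken to pair them, and at 0.06 to 0.651 in CD8+ cells. Genes named were the 7, their neighbours, the 3 of largest change per list and contrast among those called, and the 3 most like each by Pearson's r at a mean log2 CPM of at least 3. Lck, and single genes given as the only call, were added after their values were seen. The 7 genes and all lists were chosen with earlier results of these data known.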

Additional observations from a re-analysis of the deposited data

Results flagged for a closer look

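Cd8b1 was singled out because its change between genotypes differed between CD8+ and CD4+ T cells in a test of that difference. With the pool (CD4+ and CD8+ libraries of the same genotype and number) as a block, the CD8+ change minus the CD4+ change was -1.40 (log2) for STAT3-/-PD-1-/- against WT and -1.62 for STAT3-/-PD-1-/- against STAT3-/-. The 2 values share the STAT3-/-PD-1-/- libraries, and without the block neither passed by edgeR's test on filtered genes (adjusted p = 0.129 and 0.274), while both passed with no filter (0.00491 and 0.00803). The share of the Cd8a reads in STAT3-/-PD-1-/- CD4+ replicate 2 in this difference was not tested.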

How the results depend on the processing

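Of 918 values for single genes under other settings, 795 kept their direction and side of the threshold, 33 lost a call, 40 gained one and 50 changed sign, nearly all of the last at log2 fold changes near 0 or at few reads. The count of the 7 genes called moved as follows, and the cause was not tested. For STAT3-/-PD-1-/- against STAT3-/- CD4+ cells it was 0, but 4 with DESeq2, 4 with no filter on low counts and 5 with a replicate block. For STAT3-/-PD-1-/- against WT CD4+ cells it was 2, but 1 by limma on log2(RPKM + 1), and 3, Cd8a being added, with DESeq2, with no filter, with a replicate block and with only the 4 libraries compared. For the interactions of STAT3-/-PD-1-/- against WT and against STAT3-/- it was 0, but 1 and 1 with DESeq2, 2 and 1 with no filter, and 1 and 1 with the pool as a replicate block. With 1 library left out, the lone library being assumed to vary like the others, the counts ran from 0 to 0 (STAT3-/-PD-1-/- against WT) and 0 to 1 (against STAT3-/-) in CD4+ cells, from 0 to 2 and 0 to 4 in CD8+ cells, the 0 in both without STAT3-/-PD-1-/- replicate 2, and from 3 to 5 for CD8+ against CD4+ STAT3-/- cells. In CD8+ against CD4+ cells, the Zbtb7b call was lost in 3 of 4 such fits in WT and in STAT3-/- cells, and the Gata3 call in 0, 2 and 4 of 4 fits in WT, STAT3-/- and STAT3-/-PD-1-/- cells. Over all genes, the number called ran from 62 to 3104 (1538 in the report) for STAT3-/-PD-1-/- against WT CD4+ cells, from 0 to 3105 (1324) against STAT3-/- CD4+ cells, from 111 to 2965 (2066) and 2 to 2932 (2017) for the same contrasts in CD8+ cells, and from 1 to 303 (40) and 0 to 218 (7) for STAT3-/- against WT in CD4+ and CD8+ cells. RLE scaling moved no median over all genes beyond -0.026.

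A replicate block within a subset gave 303, 3104 and 3105 called genes in the CD4+ and 9, 2965 and 2932 in the CD8+ contrasts (STAT3-/- against WT, STAT3-/-PD-1-/- against WT and against STAT3-/-), and it changed no call of the 7 genes within a subset other than those given in the report. The pool block changed no call of the 7 genes other than those given in the report.

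Signs that turned with 1 library left out had these ranges of log2 fold change. STAT3-/- against WT in CD4+ cells gave -0.14 to 0.035 for Cd4, -0.63 to 1.58 for Cd8a, -0.32 to 0.070 for Cd8b1 and -0.10 to 0.025 for Gata3, and in CD8+ cells -1.05 to 0.99 for Cd4, -0.019 to 0.19 for Cd8b1 and -0.079 to 0.49 for Gata3. STAT3-/-PD-1-/- against WT gave -0.0042 to 0.28 for Runx3 in CD4+ cells, and -0.80 to 2.19 for Cd4 and -0.55 to 0.029 for Gata3 in CD8+ cells. Against STAT3-/- it gave -0.087 to 3.02 for Cd8a and -0.22 to 0.024 for Runx3 in CD4+ cells, and -0.42 to 1.93 for Cd4 and -0.071 to 0.013 for Runx3 in CD8+ cells. CD8+ against CD4+ gave -0.037 to 0.22 for Runx3 in WT and -0.11 to 0.13 in STAT3-/- cells. The interaction of STAT3-/- against WT gave -0.99 to 1.06 for Cd4 (0.0076 by limma), -1.78 to 0.43 for Cd8a, -0.22 to 0.20 for Zbtb7b, -0.21 to 0.046 for Runx3, -0.080 to 0.13 for Runx1 and -0.026 to 0.54 for Gata3. That of STAT3-/-PD-1-/- against WT gave -0.28 to 2.76 for Cd4, -0.11 to 0.84 for Zbtb7b, -0.24 to 0.032 for Runx1 and -0.13 to 0.13 for Runx3, for which limma gave -0.0058, the pool block -0.0023 and the replicate block -3e-04. That against STAT3-/- gave -0.091 to 0.86 for Zbtb7b, -0.032 to 0.21 for Runx3, -0.27 to 0.010 for Runx1 and -0.092 to 0.32 for Gata3. With 2 libraries a group, and few reads for the coreceptor of the other subset, small changes were not detectable.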

Other observations

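Over the 6 libraries of its own subset, an alternative added after the data were seen, Cd4 was most like Nipal3 (r = 0.999), Acap1 and Cd37, Cd8a most like Flt3l (r = 0.997), Rgs14 and Leprotl1, and Cd8b1 most like Ifnar2 (r = 0.998), Rnf114 and Tprgl. Cd8a and Cd8b1 followed each other there with r = 0.964. With 6 points that fall into 3 genotypes, these values describe the libraries only.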
